A study of Mus musculus with 24 samples.

Results

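The genes described here are 9 members of the Notch pathway, the receptors Notch1, Notch2, Notch3 and Notch4, the ligands Jag1 and Jag2, and the target genes Hes1, Hey1 and Heyl, followed through 4 derivatives of E0771 (also written EO771), a mammary carcinoma cell line from C57BL/6 mice. They were taken by symbol from the 13915 genes of the batch 2 count table and by the same Ensembl identifier from the 55471 genes of the batch 1 table. Of the 9 members, 6 had a row in the batch 2 table, and Notch3, Hey1 and Heyl had none and are given as not detected there. X2 cells carried the control vector. CCR7 cells carried a retroviral Ccr7 transgene with tdTomato and were sorted as negative for podoplanin (PDPN), a surface glycoprotein. CCR7-PDPN cells came from the same Ccr7-transduced cells and were sorted for high PDPN, and X2-PDPN cells were vector cells sorted for high PDPN. The sorted populations were enriched and were not cloned from single cells, and Ccr7 was driven by the retroviral vector, not by its own promoter. Batch 1 consisted of the X2, CCR7 and CCR7-PDPN libraries, while batch 2 had those of X2, X2-PDPN and again CCR7-PDPN, with 4 technical replicate libraries in each of the 6 groups, so p-values measure only the spread between libraries of 1 cell population.

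Notch receptors are single-pass proteins that are cleaved by furin on the way to the cell surface and sit there as heterodimers. A Jagged or Delta-like ligand on a neighbouring cell pulls on the receptor, ADAM proteases and then the gamma-secretase complex cut it, and the freed intracellular domain joins RBPJ and a Mastermind protein in the nucleus to switch on genes of the HES and HEY families. In the mammary gland the pathway is known for its part in luminal cell fate, and activated Notch1 and Notch4 are known mammary oncogenes of the mouse.

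Total counts lay between 22275468 and 33395418 per library in batch 1 and between 22788542 and 35721027 in batch 2. Levels are given as TPM, transcripts per 1000000 transcripts, computed here from the counts and exonic lengths, and can be compared between genes. Transgenic Ccr7 had mean levels of 5311 to 5911 TPM in the 3 groups of Ccr7-transduced cells and of 0.644 to 1.25 TPM in the others, and Pdpn had 49.9 to 52.9 TPM in the 3 PDPN-sorted groups and 0.128 to 0.853 TPM in the rest. The label of mammary tumour cells was set against markers, of which the keratin Krt8 stood at 425 to 560 TPM and the mesenchymal genes Vim at 1848 to 2340, Twist1 at 119 to 145 and Zeb1 at 37.5 to 48.3 TPM. Group means of Krt18 did not exceed 0.55 TPM, those of Epcam, Cdh1 and the basal keratins Krt5 and Krt14 did not exceed 0.133 TPM, and mesenchymal Cdh2 had at most 1 read in a library of batch 1. Of 6 endothelial markers none exceeded a group mean of 0.437 TPM, and the leukocyte markers Ptprc, Cd3e and Itgam did not exceed 0.0159 TPM. X2 and CCR7-PDPN were sequenced in both batches, and there the libraries with the same replicate number deviated from their group means together. The correlation of these deviations over genes was 0.16 to 0.62 in the 8 same-numbered pairs and -0.32 to 0.23 in the 24 others, and all 8 batch 1 libraries correlated best with the batch 2 library of their own number. The comparison of CCR7-PDPN with X2 in batch 2 is therefore not treated as an independent repeat of that in batch 1.

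The members spanned a wide range of levels. Mean levels over the 6 groups were highest for Hes1, between 61.2 and 105 TPM, and for Notch2, with 91.6 TPM in X2-PDPN and at most 57.5 TPM elsewhere. Jag1 at 20.6 to 29.5 TPM and Notch1 at 11.5 to 18.4 TPM followed. Jag2 (0.611 to 1.57 TPM) and Notch4 (0.368 to 0.796 TPM) were the lowest of the detected members, with 21 to 97 and 12 to 65 reads per library. Within groups, the libraries of Hes1 and Notch2 overlapped in X2 of batch 1 and in X2-PDPN, and those of Jag2 and Notch4 in X2 of batch 2, whereas all other neighbours in this order stood apart in every group. In cultures measured in bulk, fewer cells with a transcript and less of it per cell cannot be told apart. In batch 1, Notch3 had 4 reads in all over 12 libraries, Heyl 1 read, and Hey1 0 reads, where a count of 0 allows up to 3 counts, or 0.0898 to 0.135 CPM (counts per 1000000 counts of the library), in a library. These 3 genes were therefore below detection at this depth, and no differences were computed for them.

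**Figure D1:**
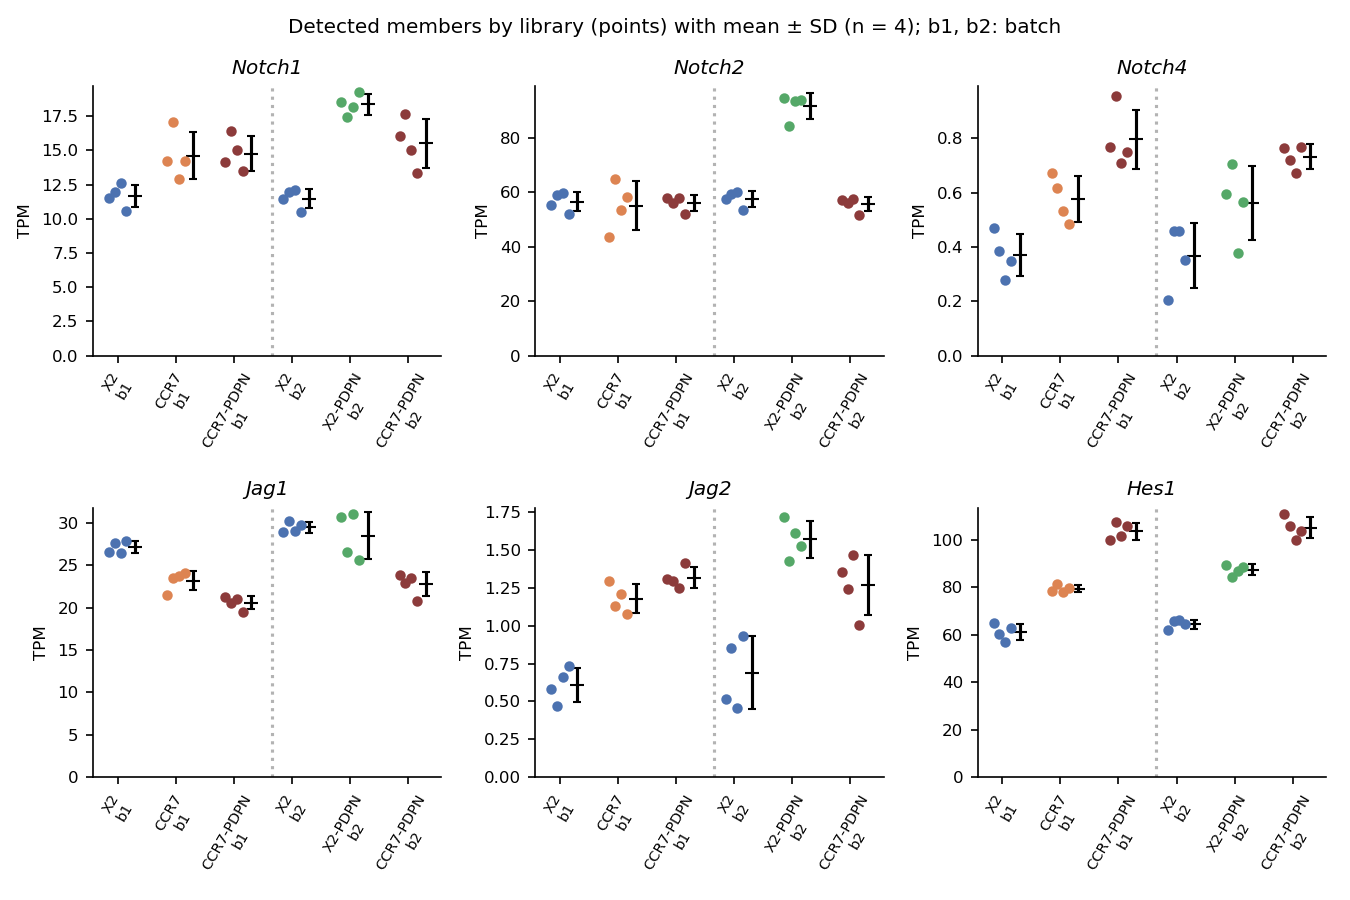
TPM (vertical axes, each from 0) of the 6 detected members in the 6 groups, with 1 point per library and the mean ± SD (n = 4) beside it, and batches parted by a dotted line. Notch2 was raised in X2-PDPN, at 84.4 to 94.7 TPM, and Hes1 was lowest in X2 and highest in CCR7-PDPN in either batch.

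Notch2 was the main receptor transcript in every group. It supplied 77.4% to 82.9% of the summed receptor TPM as a group mean, Notch1 supplied 16.5% to 21.5%, and Notch4 0.512% to 1.11%. Notch1 lies on the minus strand at chr2:26457903-26516663 and Notch2 on the plus strand at chr3:98013527-98150361 in GRCm38, and the counts cover their exons. Parts of Notch1 exons are shared with an antisense gene, 0610009E02Rik, to which 132 reads were assigned in batch 1 against 18371 for Notch1, and how strand was used in counting is not given in the sources used here. Notch1 and Notch2 supplied most of the receptor TPM, and both rose in X2-PDPN cells over X2. Notch4 also rose there, from few reads (log2 difference 0.61, SE 0.23, edgeR adjusted p = 0.019). For Notch1 and Notch2, the stretch before each RefSeq start site that lies outside the counted exons is shown, 5′ to 3′ on the strand of the gene. GGGCGG on either strand (CCGCCC) is in capitals. The Notch1 stretch is chr2:26503825-26504072 and the Notch2 stretch chr3:98013288-98013526, from RefSeq on GRCm38.p6.
Notch1: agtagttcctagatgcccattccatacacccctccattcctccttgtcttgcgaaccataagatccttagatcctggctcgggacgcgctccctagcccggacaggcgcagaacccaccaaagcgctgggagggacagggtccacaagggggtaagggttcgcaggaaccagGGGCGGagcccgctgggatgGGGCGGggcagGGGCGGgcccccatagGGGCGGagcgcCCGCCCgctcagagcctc
Notch2: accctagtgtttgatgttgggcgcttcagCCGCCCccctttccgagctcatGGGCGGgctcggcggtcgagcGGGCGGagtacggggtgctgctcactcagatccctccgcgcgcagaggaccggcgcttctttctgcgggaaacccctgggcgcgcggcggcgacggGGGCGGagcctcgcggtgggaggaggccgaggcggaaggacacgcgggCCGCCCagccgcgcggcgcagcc
Each stretch held 5 matches to GGGCGG, a word found in 32.7% of 32851 RefSeq promoters in the 250 bases before the start, and the base composition was 66.1% G or C for Notch1 and 74.1% for Notch2. Neither held TGGGAA, the core of the site that RBPJ binds, searched on both strands, and 21.6% of all promoters did. The stretches of Notch3, Notch4 and Jag1 had no TGGGAA either, that of Jag2 lay wholly inside counted exons, and Hes1, Hey1 and Heyl had no entry. GGGCGG was not particular to Notch1 and Notch2, with 4 matches in the stretch of the undetected Notch3 and 0 in those of Notch4 and Jag1. Such matches describe the letters only.

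Notch2 was higher in the PDPN-sorted vector cells than in either other group of their batch. Its levels in batch 2 were 57.6, 59.3, 59.97 and 53.4 TPM in the 4 X2 libraries and 94.7, 84.4, 93.4 and 93.8 TPM in X2-PDPN. All X2-PDPN libraries lay above all X2 libraries, and Notch2 rose by 0.66 on the log2 scale (SE 0.037, edgeR adjusted p = 4.2e-14), or 1.58-fold. In CCR7-PDPN of the same batch the values were 57.1, 56.1, 57.7 and 51.7 TPM. They overlapped with X2 (log2 difference -0.03, SE 0.038, edgeR adjusted p = 0.53) and lay below every X2-PDPN library (log2 difference -0.69, SE 0.037, edgeR adjusted p = 1.1e-14). Batch 1 showed no difference in Notch2 past the test. X2 libraries had 55.3, 58.9, 59.9 and 52.2 TPM, CCR7 libraries 43.4, 64.9, 53.6 and 58.1 TPM, and CCR7-PDPN libraries 58.1, 55.9, 58.0 and 51.9 TPM. The CCR7 libraries spread most, and their first replicate, the lowest, was also the one in which the 1480 well expressed genes with exons over 8 kb had a median deviation of -0.07 on the log2 scale from the group mean. Without it, the log2 difference of CCR7 from X2 went from -0.05 to 0.05 (edgeR adjusted p = 0.57).

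Notch1 was higher than in X2 in each of the other derivatives. The X2 libraries had 11.6, 12.0, 12.6 and 10.6 TPM in batch 1 and 11.4, 11.9, 12.1 and 10.5 TPM in batch 2. CCR7 libraries reached 14.3, 17.0, 12.9 and 14.3 TPM, above all X2 libraries of the batch (log2 difference 0.32, SE 0.085, edgeR adjusted p = 0.0073). CCR7-PDPN libraries had 14.1, 16.4, 14.99 and 13.5 TPM in batch 1 and 16.1, 17.6, 15.02 and 13.3 TPM in batch 2. Against X2 the log2 difference was 0.36 (SE 0.085, edgeR adjusted p = 0.0025) in batch 1 and 0.46 (SE 0.077, edgeR adjusted p = 0.00028) in batch 2, whereas against CCR7 it was 0.04 (SE 0.083, edgeR adjusted p = 0.74). In X2-PDPN the levels were 18.6, 17.4, 18.2 and 19.3 TPM, the highest of any group. Notch1 rose there by 0.67 on the log2 scale over X2 (SE 0.076, edgeR adjusted p = 1.2e-05), and the CCR7-PDPN libraries, which overlapped with X2-PDPN in range, were lower than X2-PDPN by a log2 difference of -0.21 (SE 0.074, edgeR adjusted p = 0.025). That last call was lost without replicate 3 of CCR7-PDPN (adjusted p = 0.068) or without replicate 1 (0.054) or 4 (0.058) of X2-PDPN. The fourth replicate had the lowest Notch1 and the lowest Notch2 level of its group in X2 and in CCR7-PDPN in both batches.

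Markers of mural cells were also higher in X2-PDPN. The summed level of the 4 (Rgs5, Cspg4, Des and Myh11) was 5.55 to 7.85 TPM over the X2 libraries of batch 2, 8.75 to 10.6 TPM over those of X2-PDPN and 9.17 to 11.2 TPM over those of CCR7-PDPN, and in batch 1 it was 6.84 to 8.07 TPM in X2, 6.78 to 8.42 TPM in CCR7 and 9.24 to 10.5 TPM in CCR7-PDPN. Des made up most of this sum, at 6.27 to 9.64 TPM as group means. Cspg4 rose from X2 to X2-PDPN by 1.22 on the log2 scale (SE 0.19, edgeR adjusted p = 6.4e-07) at 63 to 88 against 21 to 41 reads, and Des by 0.49 (SE 0.096, edgeR adjusted p = 5.5e-05). Rgs5 had at most 1 read and Myh11 at most 9 reads in a library of batch 1. In CCR7-PDPN against X2, Des rose by 0.50 (SE 0.084, edgeR adjusted p = 2.7e-05) in batch 1 and 0.63 (SE 0.096, edgeR adjusted p = 7.1e-07) in batch 2. Cspg4 did not pass there (edgeR adjusted p = 0.71 and 0.78). Cspg4 was singled out after its values were seen, and the part of these markers in the receptor and Jag2 differences was not tested.

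Notch1 and Notch2 kept their ratio in the vector cells and not in the cells with CCR7. Notch2 counts were 3.68 ± 0.069 (SD, n = 4) times those of Notch1 in X2 of batch 1, and 3.80 ± 0.046 in X2 and 3.78 ± 0.12 in X2-PDPN of batch 2. The ratio was 2.86 ± 0.38 in CCR7, and CCR7-PDPN had 2.88 ± 0.22 in batch 1 and 2.74 ± 0.24 in batch 2. None of the libraries with CCR7 reached the ratio of any vector library. In a 2-sided exact permutation test each of the 4 comparisons between cells with and without CCR7 gave p = 0.029, the smallest that 4 against 4 libraries allow, and 0.057 after adjustment over 12 tests of the ratio and the receptor sum. The summed receptor level was 111 ± 5.4 TPM (SD, n = 4) in X2-PDPN and 68.6 to 71.9 TPM as a mean in the other 5 groups, and the exact permutation p for X2-PDPN against X2 was again 0.029 (0.057 adjusted).

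**Figure D2:**
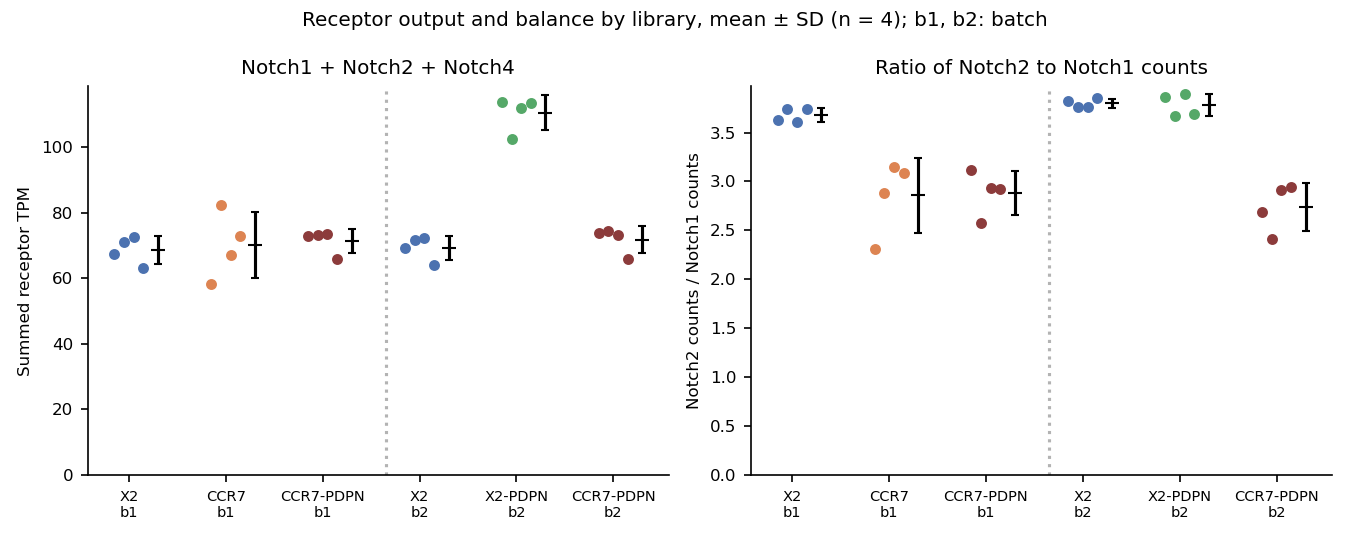
Left, the summed TPM of Notch1, Notch2 and Notch4, and right, Notch2 counts divided by Notch1 counts, for each library of the 6 groups with the mean ± SD (n = 4), on axes from 0. X2-PDPN stands above the other groups on the left at 103 to 114 TPM, and the CCR7 and CCR7-PDPN libraries lie below the vector libraries on the right, at 2.31 to 3.14 against 3.61 to 3.89.

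Notch4 (chr17:34564268-34588503, plus strand), best known from endothelium, was counted with only 12 to 65 reads per library. Its X2 levels were 0.468, 0.386, 0.279 and 0.348 TPM in batch 1 and 0.205, 0.460, 0.457 and 0.350 TPM in batch 2. In CCR7 they were 0.673, 0.617, 0.531 and 0.486 TPM, and in CCR7-PDPN 0.768, 0.955, 0.710 and 0.750 TPM in batch 1 and 0.766, 0.722, 0.671 and 0.768 TPM in batch 2. The 3 groups of batch 1 did not overlap with each other. Notch4 was 2.19-fold higher in CCR7-PDPN than in X2 in batch 1 (log2 difference 1.13, SE 0.19, edgeR adjusted p = 2.7e-05) and 1.99-fold in batch 2 (0.99, SE 0.22, edgeR adjusted p = 0.00011). It was higher in CCR7 than in X2 by 0.66 (SE 0.20, edgeR adjusted p = 0.011). The difference between CCR7-PDPN and CCR7, 0.48 (SE 0.18, edgeR adjusted p = 0.033), missed the test with DESeq2 (adjusted p = 0.066) and without replicate 3 (adjusted p = 0.09) or 4 (0.091) of CCR7 or replicate 2 of CCR7-PDPN (0.12). X2-PDPN libraries had 0.597, 0.706, 0.380 and 0.565 TPM and overlapped with X2, and the log2 difference of 0.61 (SE 0.23, edgeR adjusted p = 0.019) was lost without replicate 1 of X2 or without replicate 2 of X2-PDPN (adjusted p = 0.12 in each case). Of the endothelial markers, Pecam1 and Cdh5 were the only ones with a row in batch 2, with group means of 0.129 to 0.297 and 0.0854 to 0.437 TPM, and Tie1 had 0 reads in batch 1. Cdh5 had 1 to 17 reads per library and Pecam1 4 to 18. From X2 to X2-PDPN, Pecam1 rose by 1.15 (SE 0.38, edgeR adjusted p = 0.0095) and Cdh5 fell by 1.48 (SE 0.53, edgeR adjusted p = 0.016). In CCR7-PDPN against X2, Cdh5 rose by 0.96 (SE 0.37, edgeR adjusted p = 0.022) in batch 2 and did not pass in batch 1 (edgeR adjusted p = 0.19). Pecam1 passed in neither (edgeR adjusted p = 0.42 and 0.33). Their part in the Notch4 differences was not tested.

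Among the ligands, Jag1 (chr2:137081456-137116644, minus strand) dominated and fell with CCR7, while the rarer Jag2 (chr12:112907819-112929776, minus strand) rose in every derivative of X2. Jag1 supplied 82.4% to 87.5% of the summed TPM of Jag1, Jag2 and Dll1. Its levels in batch 1 were 26.6, 27.7, 26.5 and 27.8 TPM in X2, then 21.5, 23.5, 23.8 and 24.1 TPM in CCR7, and 21.3, 20.5, 21.0 and 19.5 TPM in CCR7-PDPN. The groups did not overlap, with CCR7 below X2 by a log2 difference of -0.23 (SE 0.042, edgeR adjusted p = 0.0001) and CCR7-PDPN below CCR7 by -0.14 (SE 0.043, edgeR adjusted p = 0.01). In batch 2 the levels were 29.0, 30.3, 29.0 and 29.8 TPM for X2, then 30.7, 26.6, 31.0 and 25.6 TPM for X2-PDPN, with 23.9, 22.9, 23.6 and 20.8 TPM for CCR7-PDPN. X2-PDPN overlapped with X2 (log2 difference -0.06, SE 0.047, edgeR adjusted p = 0.30), and CCR7-PDPN was below both, by -0.35 against X2 (SE 0.049, edgeR adjusted p = 1.1e-07) and -0.29 against X2-PDPN (SE 0.049, edgeR adjusted p = 3.1e-06).

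Jag2 had 21 to 97 reads per library. In X2 it stood at 0.579, 0.469, 0.663 and 0.731 TPM in batch 1 and at 0.514, 0.855, 0.459 and 0.935 TPM in batch 2. The CCR7 libraries had 1.29, 1.13, 1.21 and 1.08 TPM, and the CCR7-PDPN libraries 1.31, 1.29, 1.25 and 1.42 TPM in batch 1 and 1.35, 1.24, 1.47 and 1.01 TPM in batch 2. All of these lay above all X2 libraries of their batch. Jag2 was 1.91-fold higher in CCR7 than in X2 (log2 difference 0.94, SE 0.15, edgeR adjusted p = 2.8e-05), and the difference passed 1 on the log2 scale only without replicate 4 of X2 (1.03). Between CCR7-PDPN and X2 it was 1.11 (SE 0.15, edgeR adjusted p = 1.4e-06) in batch 1 and 0.89 (SE 0.18, edgeR adjusted p = 2.8e-05) in batch 2. The highest Jag2 levels were those of X2-PDPN, 1.72, 1.43, 1.61 and 1.53 TPM, 2.25-fold above X2 (log2 difference 1.17, SE 0.17, edgeR adjusted p = 1.2e-07). Neither CCR7-PDPN against CCR7 (0.18, SE 0.13, edgeR adjusted p = 0.30) nor CCR7-PDPN against X2-PDPN (-0.28, SE 0.15, edgeR adjusted p = 0.11) passed the test.

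Of the 3 target genes, Hes1 (chr16:30064384-30067796, plus strand), a repressor of the basic helix-loop-helix type, was the only one detected and rose in all 6 comparisons. In batch 1 its levels were 65.0, 60.3, 56.9 and 62.7 TPM in X2, then 78.4, 81.6, 78.0 and 79.8 TPM in CCR7, and 99.8, 108, 102 and 106 TPM in CCR7-PDPN. The 3 groups formed separate steps. Hes1 was 1.29-fold higher in CCR7 than in X2 (log2 difference 0.37, SE 0.045, edgeR adjusted p = 5.3e-07) and 1.33-fold higher in CCR7-PDPN than in CCR7 (0.41, SE 0.043, edgeR adjusted p = 2e-07). In batch 2 the steps were 61.8, 65.8, 66.0 and 64.3 TPM for X2, then 89.4, 84.4, 87.0 and 88.7 TPM for X2-PDPN, with 111, 106, 99.9 and 104 TPM for CCR7-PDPN, again without overlap. X2-PDPN was 1.35-fold above X2 (0.43, SE 0.040, edgeR adjusted p = 1.6e-12) and CCR7-PDPN 1.22-fold above X2-PDPN (0.29, SE 0.038, edgeR adjusted p = 9.1e-09). Against X2, CCR7-PDPN was higher by 0.78 (SE 0.044, edgeR adjusted p = 1.7e-12) in batch 1 and 0.72 (SE 0.040, edgeR adjusted p = 2.5e-20) in batch 2. Of 7 further targets, Hes5 and Hey2 had 0 reads in batch 1, and the 3 that could be tested were Hes2, Hes7 and Nrarp, the last an ankyrin-repeat protein that limits Notch signalling, all given here after their values were seen. Nrarp fell by 0.35 from CCR7 to CCR7-PDPN (SE 0.052, edgeR adjusted p = 1.8e-05) and by 0.20 from X2 to X2-PDPN (SE 0.050, edgeR adjusted p = 0.00064) on the log2 scale, and in CCR7 against X2 it did not pass (0.02, SE 0.052, edgeR adjusted p = 0.79). Hes7, at 47.6 to 61.8 TPM as group means, fell by 0.38 from X2 to X2-PDPN (SE 0.050, edgeR adjusted p = 1.2e-08), by 0.15 from CCR7 to CCR7-PDPN (SE 0.049, edgeR adjusted p = 0.018) and by 0.13 from X2 to CCR7 (SE 0.049, edgeR adjusted p = 0.036). Hes2, with 13 to 37 reads per library, passed the test in none of these 3 comparisons (edgeR adjusted p of 0.51 to 0.77).

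**Figure D3:**
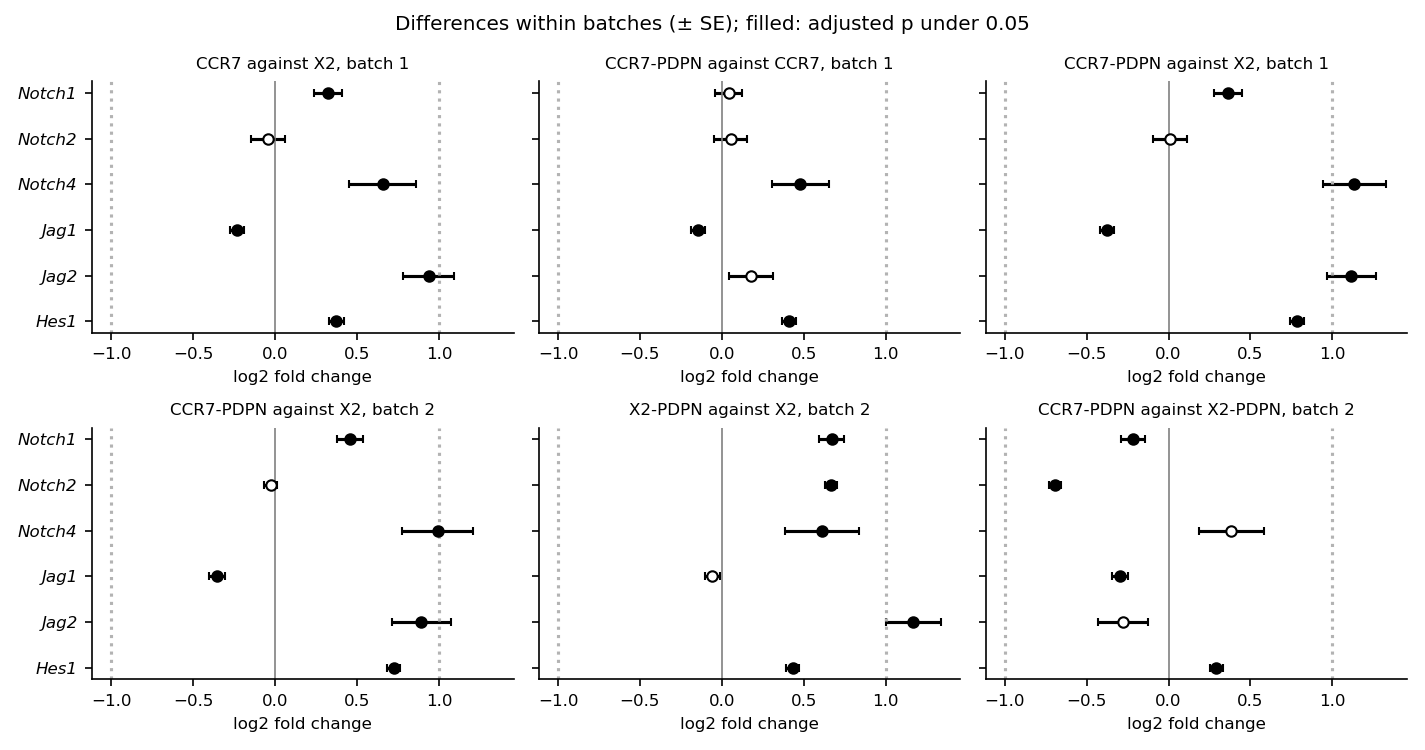
Log2 fold change (horizontal axes) ± SE of the 6 detected members in the 6 comparisons within batches, filled where the edgeR adjusted p was under 0.05, with dotted lines at -1 and 1. Hes1 is positive and filled in all 6 panels, and Notch2 is filled only where X2-PDPN takes part, at 0.66 and -0.69.

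Counted per comparison, 3 to 5 of the 6 tested members passed an adjusted p of 0.05. Against X2, CCR7 had 4 members higher and 1 lower, by a test that 49.3% of all 13261 genes passed, and 0 also had an absolute log2 fold change above 1, as 6.48% of genes did. From CCR7 to CCR7-PDPN, 2 members rose and 1 fell (all genes, 41.6%), and 0 passed the fold change threshold (3.27%). CCR7-PDPN against X2 gave 4 higher and 1 lower in batch 1 (60.9%), of which Notch4 and Jag2 passed the threshold (9.45%), and likewise 4 higher and 1 lower in batch 2 (64.8%), with 0 past the threshold (9.63%). In X2-PDPN against X2, 5 were higher and 0 lower (56.8% of 13314 genes), with Jag2 past the threshold (5.05%). CCR7-PDPN against X2-PDPN gave 1 higher and 3 lower (63.2%), with 0 past the threshold (9.16%). The median log2 difference of the 6 members against X2 was 0.35 in CCR7, 0.64 in X2-PDPN, and 0.57 and 0.59 in CCR7-PDPN of batches 1 and 2. It was 0.12 in CCR7-PDPN against CCR7 and -0.25 in CCR7-PDPN against X2-PDPN. The medians of all genes, which the TMM factors hold near 0, lay between -0.0033 and 0.0033. The median absolute log2 difference of all genes was 0.14 to 0.23 over the 6 comparisons.

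To ask whether the PDPN-sorted state went with the same differences with and without CCR7, the difference between CCR7-PDPN and CCR7 was set against that between X2-PDPN and X2. The first was measured in batch 1 and the second in batch 2, each against cells of its own batch. The CCR7 cells had been sorted as negative for PDPN, and no such sort is described for X2. The part of sorting in this contrast was not tested. Of the 6 members, 3 differed by this test (40.8% of 13690 genes did), all with the lower difference in the cells with CCR7, and 0 passed 1 on the log2 scale (5.44%). Notch1 had log2 differences of 0.04 with CCR7 and 0.67 without, which differed by -0.63 (SE 0.12, edgeR adjusted p = 0.00034). For Notch2 they were 0.05 and 0.66 and differed by -0.61 (SE 0.12, edgeR adjusted p = 0.00031), and for Jag2 0.18 and 1.17, with -0.99 between them (SE 0.22, edgeR adjusted p = 0.0005). The same contrast with an additive batch term, which draws on the groups sequenced in both batches, gave -0.58 for Notch1 (edgeR adjusted p = 9.1e-05), -0.63 for Notch2 (2e-05) and -1.10 for Jag2 (1.1e-05). That fit counted the X2 and CCR7-PDPN libraries of both batches as separate, although same-numbered ones deviated together. Its smaller p-values are therefore not further evidence. Hes1 rose in both settings, by 0.41 and 0.43, with a difference of -0.02 (SE 0.058, edgeR adjusted p = 0.83). Jag1 (-0.08, SE 0.068, edgeR adjusted p = 0.36) and Notch4 (-0.13, SE 0.29, edgeR adjusted p = 0.77) did not pass either, and the SE of Notch4 was large against any difference of that size.

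**Figure D4:**
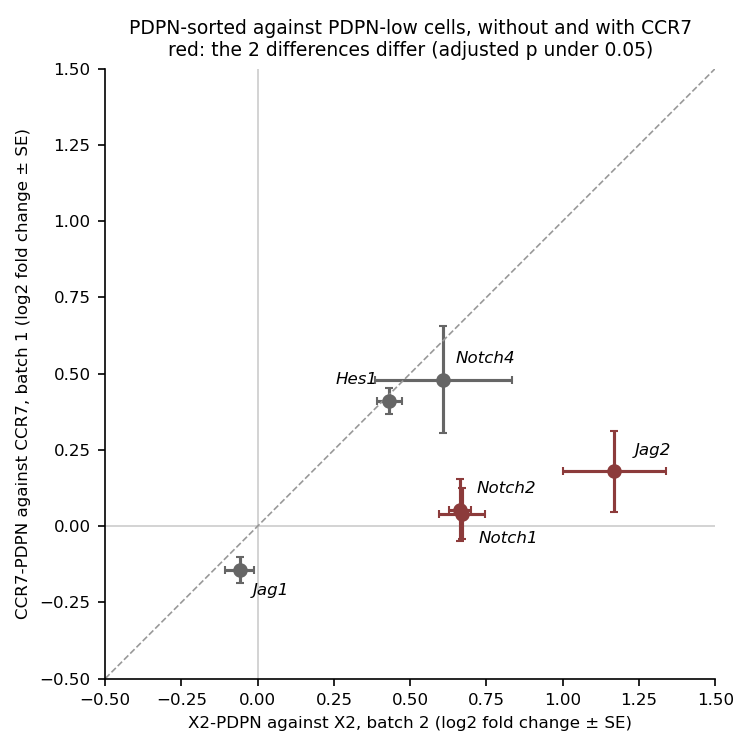
Log2 fold change ± SE of X2-PDPN against X2 (horizontal axis, batch 2) and of CCR7-PDPN against CCR7 (vertical axis, batch 1) for the 6 detected members, with the line of equal values dashed and members in red where the 2 differences differed at an adjusted p under 0.05. Hes1 lies at the line (0.43 and 0.41), and Notch1, Notch2 and Jag2 lie below it.

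The wider pathway was described through 58 other genes, of which 46 were tested in batch 1 and 47 in batch 2. From X2 to X2-PDPN, 19 rose and 10 fell (all genes, 56.8% in either direction), with a median log2 difference of 0.05, and for CCR7-PDPN against X2 of batch 1 there were 12 that rose and 16 that fell (all genes, 60.9%; median -0.0084). The Delta-like ligand Dll1, with 46 to 193 reads per library, and Neurl3 were the genes of these lists that passed the fold change threshold. It was at 5.20 ± 0.56 TPM (SD, n = 4) in X2 and 2.19 ± 0.31 in CCR7 of batch 1, and in batch 2 X2 had 5.51 ± 0.63 TPM, X2-PDPN 3.45 ± 0.49 and CCR7-PDPN 1.98 ± 0.29. The log2 difference was -1.23 (SE 0.12, edgeR adjusted p = 1.9e-08) in CCR7 against X2, -0.67 (SE 0.11, edgeR adjusted p = 9.1e-07) in X2-PDPN against X2 and -1.47 in CCR7-PDPN against X2 in both batches. Dll3 and Dll4 had no more than 10 reads in any batch 1 library and no row in batch 2. Neurl3, a ubiquitin ligase, with 2 to 25 reads per library, was higher in X2-PDPN than in X2 by 1.25 (SE 0.33, edgeR adjusted p = 0.0013).

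The core of the cleavage and nuclear machinery was expressed throughout. Among the gamma-secretase genes, Ncstn had group means of 88.1 to 92.3 TPM, Psenen 79.0 to 87.3, Aph1a 52.9 to 60.1, Psen2 3.13 to 6.85 and Aph1b 1.39 to 2.72 TPM, and Aph1c had at most 2 reads. In X2-PDPN against X2, Aph1b rose by 0.80 (SE 0.13, edgeR adjusted p = 1e-06) and Psen2 fell by 0.75 (SE 0.11, edgeR adjusted p = 3.8e-07) on the log2 scale. Rbpj, the DNA-binding partner of the receptor domain, did not pass the test between X2-PDPN and X2 (-0.01, SE 0.027, edgeR adjusted p = 0.69) and fell by 0.29 from CCR7 to CCR7-PDPN (SE 0.059, edgeR adjusted p = 0.0011). Of the 15 genes of the nuclear complex and its corepressors, 7 rose and 1 fell from X2 to X2-PDPN (all genes, 56.8%), while 5 rose and 8 fell from there to CCR7-PDPN (63.2%). Of the 5 glycosyltransferases that modify the receptors, 3 rose and 0 fell from X2 to X2-PDPN (all genes, 56.8%). In CCR7 against X2, 0 rose and 4 fell (all genes, 49.3%). The counts were the same in CCR7-PDPN against X2-PDPN (63.2%) and in CCR7-PDPN against X2 of batch 1 (60.9%) and batch 2 (64.8%). With so few genes these counts describe the list only. Within them, the Fringe enzymes Lfng and Mfng, named after their values were seen, rose by 0.39 (SE 0.065, edgeR adjusted p = 1.3e-06) and 0.36 (SE 0.060, edgeR adjusted p = 1.4e-06) in X2-PDPN over X2. Rfng, also a Fringe enzyme, did not pass the test there (0.07, SE 0.051, edgeR adjusted p = 0.27).

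**Figure D5:**
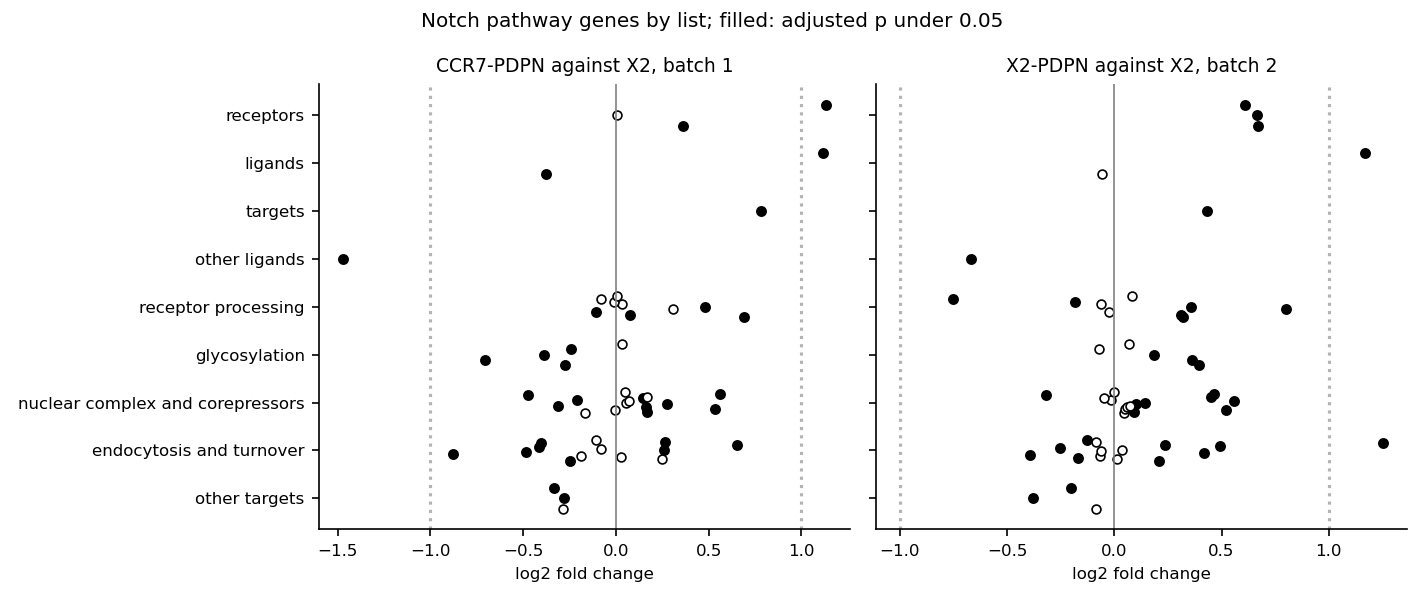
Log2 fold change (horizontal axes) of each tested gene of the Notch pathway lists (rows) in CCR7-PDPN against X2 of batch 1 (left) and X2-PDPN against X2 of batch 2 (right), filled where the edgeR adjusted p was under 0.05, with dotted lines at -1 and 1. The other ligands hold a single point, Dll1, at -1.47 on the left and -0.67 on the right.

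Among 10532 genes tested in both batches and averaging 1 or more in log2 CPM, the patterns most like that of Jag2 were those of Serpinf1, which encodes pigment epithelium-derived factor, with Pearson's r of 0.94 over the 12 libraries of batch 1 and 0.91 over those of batch 2, and the laminin chain gene Lamb2 (0.92 and 0.91). For Notch4 they were Tmem164 (0.91 and 0.88) and Fbxo36 (0.90 and 0.87). The libraries of a group share their cell population, so these values mostly reflect 3 group levels per batch. In X2-PDPN against X2, 5.05% of all genes passed the fold change threshold. Within 5 Mb of the tested members they were 6 of 149 tested around Notch1, 4 of 104 around Notch2 and 11 of 159 around Notch4. Around Jag1 they were 0 of 17, around Jag2 4 of 78 and around Hes1 6 of 50.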

How the data were processed

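RNA of 24 libraries was made into stranded, polyadenylated libraries and read single-end on a NextSeq 550. The authors deposited raw counts per Ensembl gene on GRCm38 (mm10), with no normalization and replicates kept apart, in 1 table per batch. The batch 2 table is shorter, and its filter, the aligner and the strand setting are not given in the sources used here. Per the labels, TPM under 1 was treated as noise by the authors, a level that all Notch4 libraries and all X2 libraries of Jag2 fall under.

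Counts were tested with edgeR 4.0.16 (R 4.3.3) with TMM factors, filterByExpr and a robust quasi-likelihood F test in 1 model per batch of 3 groups, and adjusted by Benjamini-Hochberg over 13261 (batch 1), 13314 (batch 2) or, for the difference of differences over all 24 libraries, 13690 genes. A floor of 3 counts stands for a count of 0 and covers counting error only. TPM used the exonic lengths in the tables. Python 3.11.15, pandas 2.3.3, scipy 1.17.1 and matplotlib 3.10.9 were used for the rest. The fits were tested on simulated data with 200 genes changed by 2 on the log2 scale, and 200 of 200 were recovered for CCR7-PDPN against CCR7 and for X2-PDPN against X2. The changed genes were drawn from the better expressed ones, and all genes were given the same spread. The simulation therefore does not cover changes as small as those of the members or counts as low as those of Notch4. Replicate pairs differed beyond counting noise (chi-square per degree of freedom 2.07 to 22.5), so no library was counted as a duplicate.

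Members, lists and tests were chosen with earlier results of these data known. Named genes were all members, list genes past the fold change threshold, Rbpj, the Delta-like ligands, the gamma-secretase subunits, and for each member past the threshold the 2 genes with the most similar pattern (the smaller Pearson's r of the 2 batches). Some genes of these lists and of the marker lists are not reported here. Alternatives were DESeq2 1.42.0, RLE factors, no filter on low counts, a replicate block, the 2 groups alone, an additive batch term, no fold change threshold and each library left out.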

Additional observations from a re-analysis of the deposited data

Results flagged for a closer look

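The difference between PDPN-sorted and other cells was not the same with CCR7 (batch 1) as without it (batch 2) for 3 members, by a test of the difference itself in edgeR. The other cells were sorted as PDPN-negative with CCR7, and no such sort is described for X2. Notch1 differed by -0.63, Notch2 by -0.61 and Jag2 by -0.99 on the log2 scale, with adjusted p-values over all genes of 0.00034, 0.00031 and 0.0005. Leaving out each of the 24 libraries in turn gave -0.69 to -0.54 for Notch1, -0.71 to -0.52 for Notch2 and -1.18 to -0.83 for Jag2, with adjusted p-values of at most 0.0027. The libraries of X2 in batch 1 and of CCR7-PDPN in batch 2 are not part of this contrast, so leaving them out hardly probes it. With an additive batch term, estimated through X2 and CCR7-PDPN of both batches, they were -0.58, -0.63 and -1.10 (adjusted p at most 9.1e-05). Same-numbered libraries of these groups deviated together across batches and were counted as separate there. The smaller p-values of that fit are therefore not further evidence.

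Of 36 sets of 4 libraries examined for a library far from the others, 1 stood out, where chance gives about 1 in 20. Replicate 2 of X2-PDPN had 84.4 TPM of Notch2 and the other libraries 93.4 to 94.7 TPM. In the same library the median deviation of well expressed genes with exons over 8 kb was -0.04 on the log2 scale, and its part in the value was not tested.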

How the results depend on the processing

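Of 786 recomputed member differences, 764 kept their direction and their side of the adjusted p of 0.05, 10 lost the call, 1 gained it and 11 changed sign. The 786 include runs that left out a library of a group outside the comparison, which enters only through the shared fit. The 11 were differences near 0 with a library left out, and none was past the test. They ranged from -0.0158 to 0.123 for Notch1 in CCR7-PDPN against CCR7, and for Notch2 from -0.0437 to 0.142 in CCR7-PDPN against CCR7, -0.136 to 0.0521 in CCR7 against X2, -0.0325 to 0.0386 in CCR7-PDPN against X2 of batch 1 and -0.0623 to 0.00178 in batch 2. Notch4 ranged from -0.282 to 0.0544 in the difference of differences. The call gained was Notch4 in CCR7-PDPN against X2-PDPN without replicate 2 of X2-PDPN (log2 difference 0.53, edgeR adjusted p = 0.034). The lost calls were those of Notch4 named above, among them CCR7-PDPN against CCR7 without a filter on low counts (edgeR adjusted p = 0.063), and of Notch1 in CCR7-PDPN against X2-PDPN. The cause was not tested.

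Without the fold change threshold the members called were 3 of 6 in CCR7-PDPN against CCR7, 5 in CCR7 against X2, 5 in CCR7-PDPN against X2 of batch 1 and 5 of batch 2, 5 in X2-PDPN against X2, 4 in CCR7-PDPN against X2-PDPN and 3 in the difference of differences. The genes called rose, because the fold change was no longer asked for, from 433 to 5513, 859 to 6534, 1253 to 8071, 1282 to 8626, 673 to 7560, 1219 to 8411 and 745 to 5585 in the same order. With no filter on low counts, 1891 genes passed in CCR7-PDPN against X2 of batch 1. Members past the threshold went from 0 to 1 with DESeq2 in CCR7-PDPN against X2 of batch 2 (Notch4, 1.003) and from 0 to 1 with the additive batch term in the difference of differences (Jag2). With 1 library left out they ranged from 0 to 1 in CCR7 against X2, through Jag2 without replicate 4 of X2, and from 0 to 1 in the difference of differences, through Jag2 without replicate 2 or 4 of CCR7, X2-PDPN or X2 or replicate 4 of CCR7-PDPN. In CCR7-PDPN against X2 of batch 2 they ranged from 0 to 2, through Notch4 without replicate 3 of CCR7-PDPN or 2 or 3 of X2 and Jag2 without replicate 2 or 4 of X2.

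Replicate numbers did not pair the groups of a batch, since deviations of same-numbered libraries correlated at -0.37 to 0.37, above 0.1 in 9 of 24 pairs, and a library correlated best with its own number in 16 of 48 cases. The replicate block changed no call of a member in 42 results and moved the genes past the threshold from 433 to 429 in CCR7-PDPN against CCR7. Depth limits Notch4 and Jag2, with 12 to 97 reads per library, and the undetected Notch3, Hey1 and Heyl.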
